A study of Mus musculus with 3 samples.

Results

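The ligands of the EGF receptor described here are 6 genes chosen by name: Areg (amphiregulin), Ereg (epiregulin), Hbegf (heparin-binding EGF-like growth factor), Btc (betacellulin), Tgfa (transforming growth factor alpha) and Nrg1 (neuregulin 1). Of these 6, 4 had a row in the raw count table of 19723 genes, and all 4 were among the 13019 genes that reached 1 CPM (counts per 1000000, scaled as described under processing) in at least 1 library. Tgfa was listed in the FPKM table only (fragments scaled by gene length and library size), and Btc was not analysed here. The libraries came from female BALB/c mice aged 6 to 8 weeks. MDSCs, myeloid-derived suppressor cells that restrain T cells, were sorted from 20 pooled tumours after treatment with alisertib, which blocks the mitotic kinase Aurora A, and from 20 pooled tumours of control mice, which the labels call both control treated and untreated. Neutrophils were sorted from the pooled bone marrow of 5 wild-type mice without tumours. The tumour line, the drug dose, any vehicle and the surface markers of the sort are not stated in the labels. Each group was 1 library, so no spread between animals could be measured, no test between groups was possible and every difference is a difference between these pools.

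EGF family ligands are made as membrane-anchored precursors, and metalloproteases, chiefly ADAM17, cut them from the cell surface so that they can reach receptors on the same or neighbouring cells. Amphiregulin and transforming growth factor alpha bind EGFR, epiregulin, betacellulin and heparin-binding EGF bind EGFR and ERBB4, and neuregulin 1 binds ERBB3 and ERBB4 rather than EGFR, so its place in the list is by family and not by receptor. Leukocytes are a known source of amphiregulin in tissue repair and of several of these ligands in tumours.

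What makes these proteins a family is the EGF-like domain, which 6 cysteines hold in shape. Its coding sequence, from the first cysteine codon to the last, is shown for 3 of the measured ligands from the GENCODE M21 transcripts of the reference strain. Cysteine codons are in capitals, and Nrg1 has 2 forms that differ in the last part of the domain.
Areg: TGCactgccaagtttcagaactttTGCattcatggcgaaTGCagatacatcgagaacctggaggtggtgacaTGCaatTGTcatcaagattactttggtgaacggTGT
Ereg: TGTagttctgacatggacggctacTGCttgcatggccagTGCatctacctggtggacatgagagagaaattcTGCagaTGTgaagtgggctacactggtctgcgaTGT
Nrg1, form in 8 transcripts: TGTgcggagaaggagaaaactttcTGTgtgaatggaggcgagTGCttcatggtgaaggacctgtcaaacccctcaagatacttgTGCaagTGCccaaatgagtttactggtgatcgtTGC
Nrg1, form in 4 transcripts: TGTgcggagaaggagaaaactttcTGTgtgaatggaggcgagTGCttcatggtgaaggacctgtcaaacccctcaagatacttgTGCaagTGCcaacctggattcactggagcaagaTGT
The Areg and Ereg stretches have the same length, 36 codons, and the same spacing between cysteines. They share 58 of 108 bases (53.7%) and 12 of 36 encoded residues (33.3%, the 6 cysteines included), so reads from this stretch differ between the neighbouring genes at many bases. Nrg1 has 40 codons, with 1 more residue between the second and the third cysteine and 3 more between the third and the fourth. Counts per gene do not tell which Nrg1 form was present.

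Areg and Ereg are neighbours on chromosome 5 of GRCm38. Ereg (ENSMUSG00000029377) spans 91074622 to 91093646 and Areg (ENSMUSG00000029378) 91139599 to 91148432, both on the plus strand, with start sites 65.0 kb apart. Nrg1 (ENSMUSG00000062991) lies on chromosome 8 at 31814551 to 32884029, on the minus strand. An antisense gene model overlaps Ereg and 2 noncoding models overlap Nrg1. None of the 3 had a row in the count table, and the strand setting of the counting is not given, so reads of these partners could have been assigned to Ereg or Nrg1.

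Of the 6 ligands, 3 (Areg, Btc and Tgfa) had a promoter in the RefSeq table of build GRCm38.p6. The 250 bases before the Areg start, chr5:91139349-91139598 on the plus strand, are shown because Areg had no count in bone marrow and many in both tumour libraries. Capitals mark a cAMP response element (TGACGTCA) and a TATA box (TATAAA).
Areg promoter: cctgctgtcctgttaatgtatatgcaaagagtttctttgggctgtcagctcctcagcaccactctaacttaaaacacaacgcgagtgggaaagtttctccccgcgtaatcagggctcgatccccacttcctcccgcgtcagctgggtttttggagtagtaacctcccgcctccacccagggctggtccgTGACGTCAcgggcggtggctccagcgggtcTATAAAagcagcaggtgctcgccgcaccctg
The first motif lay at bases -61 to -54 from the start site and the second at -31 to -26. Searched on both strands of the same 250 bases, TGACGTCA was found in 508 of 32851 promoters of the table (1.55%) and TATAAA in 12.4%. The AP-1 motif TGANTCA, found in 6.75% of promoters, was not in this window. The Btc and Tgfa promoters held none of the 3 motifs. These are matches of letters and do not show binding.

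The libraries held 19373087 counts (alisertib), 21959748 (control) and 21987097 (bone marrow). Of 12 neutrophil markers, all were detected in every library, at summed levels of 15190, 34747 and 107833 CPM, lowest with alisertib. Ly6g, which marks mouse neutrophils, had 1246, 1605 and 25371 counts. Markers of other cells were also read. Monocyte and macrophage markers, 12 genes, summed to 1087, 1014 and 597 CPM. T, NK and innate lymphoid markers, 14 genes, summed to 58.9, 27.0 and 153 CPM, with Klrb1c at 0 in both tumour libraries and Ncr1 at 0 with alisertib. Cd3d alone gave 136 CPM of the bone marrow sum, and without it the sums were 52.7, 18.3 and 17.0 CPM, highest with alisertib. B cell markers, 8 genes, summed to 46.2, 6.76 and 212 CPM. Dendritic cell markers, 8 genes, summed to 192, 157 and 31.7 CPM, with Siglech at 0 in both tumour libraries and Cd209a at 0 with alisertib. Without Itgax, which gave most of the tumour sums, they were 22.5, 6.09 and 12.5 CPM. Mast cell, basophil and eosinophil markers, 11 genes, summed to 68.4, 49.6 and 242 CPM, with Ms4a2 and Epx at 0 in control MDSCs. Epithelial markers, of which 5 of 12 had a row, summed to 20.96, 18.9 and 10.6 CPM, with Epcam at 73, 48 and 0 counts. Fibroblast and endothelial markers, of which 5 of 10 had a row, summed to 53.0, 50.2 and 11.2 CPM, with Kdr at 0 in bone marrow. Pecam1 gave most of each sum, and without it the sums were 15.5, 6.45 and 1.13 CPM, highest with alisertib.

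Areg, Ereg and Hbegf were read at 13.1 to 37.3 CPM in both tumour libraries and below 0.5 CPM in bone marrow neutrophils, whereas Nrg1 was present in all 3 libraries. Levels are given in CPM with the 95% Poisson interval of the count, and a gene was called higher or lower between 2 libraries when the 95% interval of the ratio lay at least 2-fold from 1. In bulk libraries, fewer cells that carry a transcript and less transcript per cell cannot be told apart.

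Areg, the EGFR ligand of repair responses, had 272 counts with alisertib (13.1 CPM, 11.6 to 14.8), 290 in control (14.8 CPM, 13.2 to 16.7) and 0 in bone marrow. The tumour intervals overlapped, and a count of 0 in bone marrow allows up to 3 counts, 0.130 CPM. Areg was at least 114-fold higher in control MDSCs and at least 101-fold higher in alisertib MDSCs than in bone marrow neutrophils.

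Ereg, a ligand of broad receptor range, had 379 counts with alisertib (18.3 CPM, 16.5 to 20.2), 724 in control (37.1 CPM, 34.4 to 39.9) and 2 in bone marrow (0.087 CPM, 0.010 to 0.313). The 3 intervals did not overlap. With 2 counts in bone marrow, the ratio was 342 (118 to 3537) for control MDSCs and 169 (57.9 to 1745) for alisertib MDSCs.

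Hbegf (ENSMUSG00000024486, chromosome 18, 36504927 to 36515805, minus strand) encodes a ligand that also binds heparan sulphate. It had 774 counts with alisertib (37.3 CPM, 34.71 to 40.01), 672 in control (34.4 CPM, 31.9 to 37.1) and 10 in bone marrow (0.433 CPM, 0.208 to 0.797). The tumour intervals overlapped, and the bone marrow interval lay far below both. The ratio of Hbegf to bone marrow was 75.6 (42.9 to 166) in control and 82.0 (46.5 to 180) with alisertib.

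Nrg1, a ligand of ERBB3 and ERBB4, had 247 counts with alisertib (11.9 CPM, 10.5 to 13.5), 243 in control (12.4 CPM, 10.9 to 14.1) and 158 in bone marrow (6.85 CPM, 5.82 to 8.00). The bone marrow interval lay below both tumour intervals. The ratio to bone marrow was 1.81 (1.48 to 2.23) in control and 1.74 (1.42 to 2.13) with alisertib, so the lower bounds were short of 2-fold and Nrg1 was not called in either comparison.

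**Figure D1:**
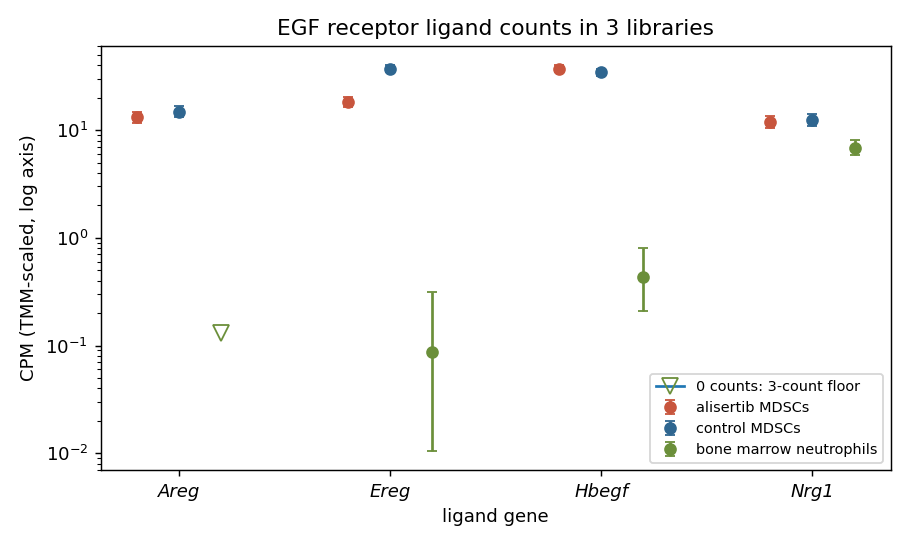
CPM (log axis) of the 4 counted ligands in each of the 3 libraries, with bars for the 95% Poisson interval of the count and an open triangle for the 3-count floor of 0.130 CPM where Areg had 0 counts. Areg, Ereg and Hbegf sit between 13.1 and 37.3 CPM in the tumour libraries and below 0.5 CPM in bone marrow, and Nrg1 sits between 6.85 and 12.4 CPM in all 3.

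Control MDSCs were compared with bone marrow neutrophils to ask how cells of the tumour differ from those of healthy mice. Of the 6 ligands, Areg, Ereg and Hbegf were called higher, Nrg1 was not called, and Btc and Tgfa gave no count comparison. Across all genes 18.3% were called higher and 22.9% lower (41.3% either way) in this comparison. Areg, Ereg and Hbegf passed the 1 CPM filter only through the tumour libraries, so their share is a description and is not set against the background. In alisertib MDSCs against the same bone marrow library, Areg, Ereg and Hbegf were again called higher, with 18.7% of all genes called higher and 22.3% lower (41% either way). Both comparisons share the bone marrow library, so they are not independent. Of 12 neutrophil markers, 8 were called lower and none higher in control MDSCs than in bone marrow, and 10 were called lower with alisertib. All 8 B cell markers were called lower in control MDSCs. Monocyte and macrophage markers also differed from bone marrow (7 of 12 called higher and 2 lower in control MDSCs). Of the epithelial markers 4 passed the filter, and 2 were called higher and none lower in control MDSCs. These were Epcam (18.9-fold over the 3-count floor) and Krt18 (28.7-fold), which passed the filter only through the tumour libraries. Krt7 went the other way (1.74 CPM in control against 4.86 in bone marrow), and Cdh1 stood at 7.01 against 5.46. The part of such cells in the ligand counts was not tested. Of 11 mast cell, basophil and eosinophil markers, 9 were called lower and 1 higher in each tumour library than in bone marrow. Several of the 9, Cpa3 and Mcpt8 among them, passed the filter only through bone marrow. The one called higher was Siglecf, at 52.3 CPM with alisertib, 35.6 in control and 9.06 in bone marrow. The part of these cells in the ligand counts was not tested either.

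Alisertib MDSCs were then compared with control MDSCs, which asks what changed in tumour MDSCs after treatment. None of the ligands was called, against 1.8% of all genes called higher and 1.18% lower (2.98% either way). Ereg had the largest difference of the 4: its level was 2.03-fold lower with alisertib (1.79 to 2.30), a log2 ratio of -1.02, and the nearer bound was short of 2-fold. Areg had a log2 ratio of -0.18 and a ratio of 0.883 (0.745 to 1.05), and Nrg1 a log2 ratio of -0.06 and a ratio of 0.956 (0.798 to 1.15). Hbegf had a log2 ratio of 0.12 and a ratio of 1.08 (0.976 to 1.20). The intervals of these 3 ratios include 1 and reach no further than 1.34-fold lower or 1.20-fold higher. Scaling by total counts moved the median of all genes from 0.00 to 0.27 and turned the log2 ratios of Areg (0.09) and Nrg1 (0.20) positive, while Hbegf stood at 0.38 and Ereg at -0.75. Neutrophil markers were lower in the alisertib library, with 7 of 12 called lower, and B cell markers were higher, with 6 of 8 called higher. Of 14 T, NK and innate lymphoid markers 6 were called higher and none lower, and of the 12 past the filter 3 had a ratio below 1. Among the 6, Cd3e, Trbc1 and Gata3 passed the filter only through the alisertib library. The part of this shift in the Ereg difference was not tested.

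**Figure D2:**
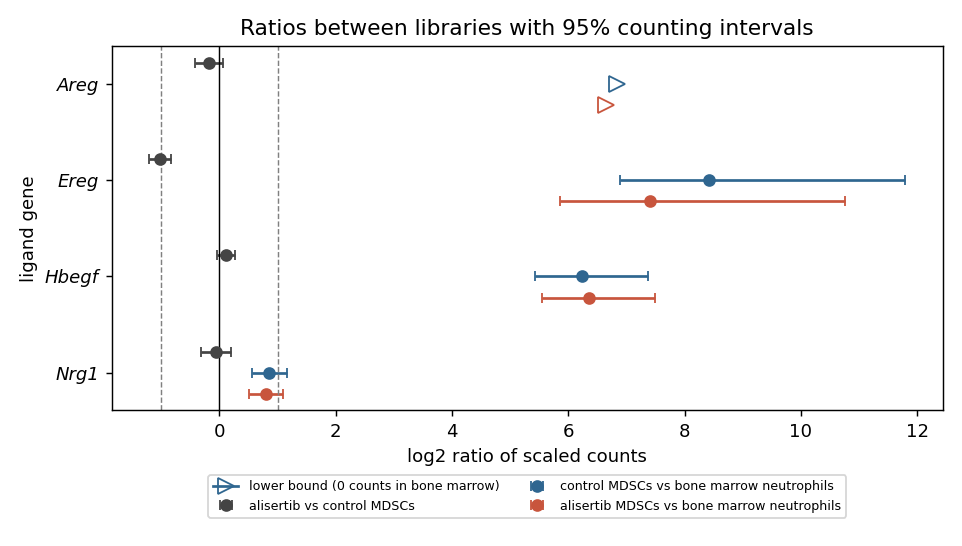
Log2 ratios of the 4 counted ligands for the 3 comparisons, with bars for the 95% counting interval and dashed lines at a 2-fold ratio. Open triangles, labelled lower bound, are ratios to the 3-count floor where bone marrow had 0 counts. They are not bounds of the 95% interval. In alisertib against control MDSCs, Ereg lies at -1.02 and the other ligands between -0.18 and 0.12, and against bone marrow Nrg1 lies near 0.8 and the other ligands above 6.

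The ratio of one ligand's counts to another's within a library does not depend on how libraries are scaled, so the 6 pairs of ligands were compared directly, with exact 95% intervals of the conditional odds ratio that were not adjusted for the number of pairs. Control MDSCs had 0.401 Areg counts per Ereg count and alisertib MDSCs 0.718, a ratio of 1.79 (1.45 to 2.22). Ereg counts per Hbegf count were 1.08 in control and 0.490 with alisertib, a ratio of 0.455 (0.385 to 0.536). Ereg counts per Nrg1 count were 2.98 and 1.53, a ratio of 0.515 (0.412 to 0.643). The 3 pairs that hold Ereg thus had intervals that exclude 1, on the side of less Ereg in the alisertib library. These pairs share the same Ereg counts, so they are not independent. Areg per Hbegf had a ratio of 0.814 (0.667 to 0.995), an interval that also excludes 1, though close to it at its upper end. Areg per Nrg1 (0.923, 0.719 to 1.18) and Hbegf per Nrg1 (1.13, 0.918 to 1.40) had intervals that include 1. These intervals cover counting error in 2 libraries and not the spread between animals.

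Levels of different genes were compared on the deposited FPKM values, which divide by gene length. In control MDSCs the order was Hbegf (14.1 FPKM, 13.1 to 15.2), Areg (11.9, 10.6 to 13.4), Ereg (8.75, 8.12 to 9.41) and Nrg1 (1.17, 1.03 to 1.33), where the intervals of Hbegf and Areg overlap. In alisertib MDSCs it was Hbegf (15.3 FPKM, 14.2 to 16.4), Areg (10.5, 9.27 to 11.8), Ereg (4.30, 3.87 to 4.75) and Nrg1 (1.12, 0.982 to 1.26), with no overlap. Ereg made up 24.3% of the summed ligand FPKM in control MDSCs and 13.8% with alisertib, and Hbegf 39.3% and 49.0%. In bone marrow the order was Nrg1 (0.654 FPKM), Hbegf (0.181), Ereg (0.021), Tgfa (0.0066) and Areg at 0, and Nrg1 made up 75.9% of the sum. The summed ligand level (5 ligands) was 36.0 FPKM in control MDSCs, 31.2 with alisertib and 0.863 in bone marrow. Among the 13019 genes past the filter, Hbegf in control MDSCs exceeded the FPKM of 78.0% and Areg that of 75.7%, so these ligands were transcripts of the upper-middle range, while Nrg1 exceeded 34.9%.

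The first place of Hbegf rests on the length used for it. Counts and FPKM together imply a length of 2373 bases for Hbegf in the deposited values, near the 2375 bases of its protein-coding transcript, whereas the union of all annotated exons is 4834 bases because 2 retained-intron transcripts add to it. For Areg, Ereg and Nrg1 the implied length equalled the exon union (1215, 4128 and 10351 bases). On counts per kilobase of exon union, Areg came first in both tumour libraries, at 12.2 CPM per kilobase in control and 10.8 with alisertib. Hbegf followed at 7.12 and 7.71, and Ereg stood at 8.98 and 4.42. On that scale Ereg was above Hbegf in control MDSCs and below it with alisertib. Nrg1 was last of the 4 in both tumour libraries on either scale.

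**Figure D3:**
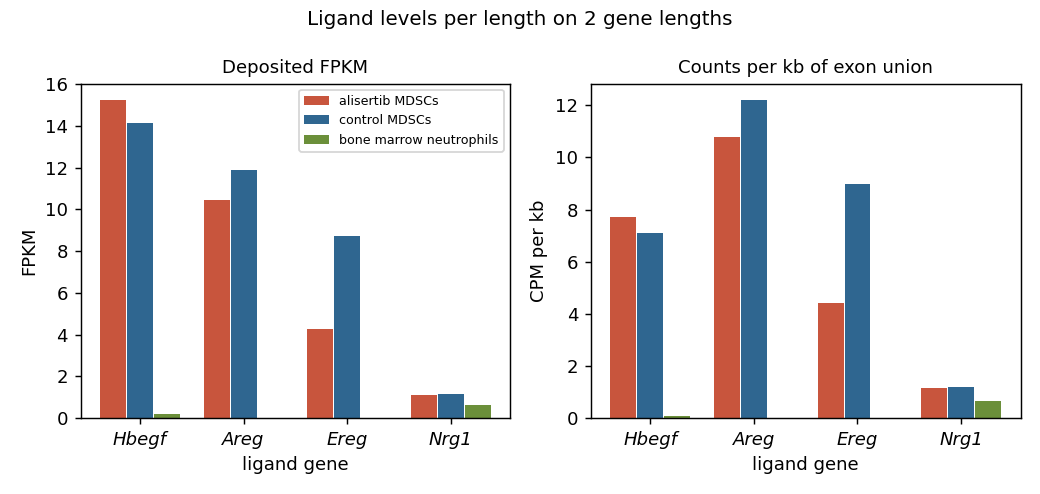
Bars give the level of each counted ligand in the 3 libraries, as deposited FPKM on the left and as CPM per kilobase of exon union on the right. Hbegf is the tallest in both tumour libraries on the left (14.1 and 15.3 FPKM) and Areg on the right (12.2 and 10.8), and Ereg in alisertib MDSCs is near 4.3 to 4.4 on both.

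Tgfa, which binds EGFR alone, was listed at 0.0072 FPKM with alisertib, 0.0154 in control and 0.0066 in bone marrow. At its exon union of 6490 bases and the library sizes implied by the other genes, these values correspond to 1, 2 and 1 reads. No comparison between libraries is possible at that depth.

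The other ligands of the family had at most 46 counts in any library. Epgn (epigen), another EGFR ligand, lies 47.2 kb before Ereg on chromosome 5 (91027464 to 91035215) and had 38, 40 and 0 counts with alisertib, in control and in bone marrow. Over the 3-count floor, Epgn was 15.7-fold higher in control MDSCs and 14.1-fold higher in alisertib MDSCs than in bone marrow. Nrg4 had 24, 19 and 46 counts and was not called in any comparison. Nrg2 had 0, 6 and 25 counts, 7.5-fold lower in alisertib MDSCs than in bone marrow on the 3-count floor. Egf had 6, 3 and 6 counts, below the filter. Nrg3 was not analysed here.

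The neighbourhood of Ereg and Areg, chosen for description after the values were seen, holds the CXC chemokine genes Cxcl1, Cxcl2 and Cxcl3. Within 500 kb before Ereg and on to Btc, the annotation has 14 protein-coding genes, of which 11 had a row in the count table and 10 passed the filter. Of the 11, 9 were called higher in control MDSCs than in bone marrow. Since the stretch was picked with these values known and several of the 9, Areg, Ereg and Epgn among them, passed the filter only through the tumour libraries, the count is a description and is not read against the 18.3% of all genes called higher. None of the 11 was called between alisertib and control MDSCs. Cxcl2, which draws neutrophils, had 14107 CPM with alisertib, 12401 in control and 311 in bone marrow, and Cxcl3 had 2442, 2436 and 4.29. Both were thus read in bone marrow, unlike Areg and Epgn, and like Areg they differed little between the tumour libraries.

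**Figure D4:**
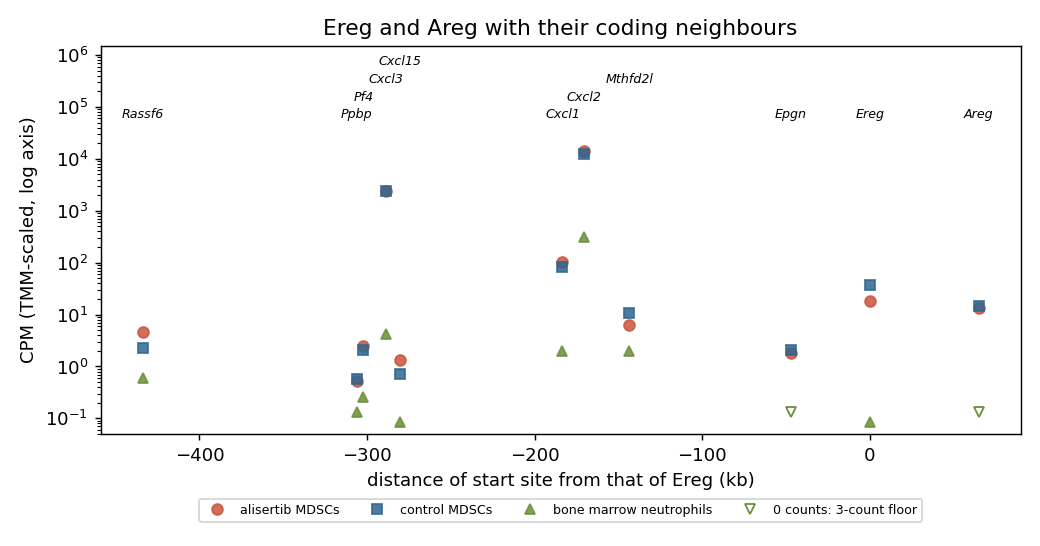
CPM (log axis) of the 11 counted coding genes around Ereg and Areg in the 3 libraries, against the distance of each start site from that of Ereg in kilobases, with open triangles at the 3-count floor for 0 counts. Areg, 65.0 kb after Ereg, and Epgn, 47.2 kb before it, have 0 counts in bone marrow, and the chemokine genes reach 12401 CPM in control MDSCs.

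The genes whose pattern over the 3 libraries lay nearest to each ligand were found by the distance between their log2 ratios of alisertib to control and of control to bone marrow, among 7350 genes with at least 10 CPM in some library. For Areg these were Oas1a (distance 0.17), Cxcl3 (0.34) and Fam71f2 (0.51). Oas1a has close copies that may share its reads, and the position of Areg itself depends on the 0.5 added to its 0 counts. For Ereg they included Arg1, the arginase gene (0.49), and Igfbp6 (0.59). For Hbegf they were Hmox1, the haem oxygenase gene (0.39), Emp1 (0.41) and Dmkn (0.43). For Nrg1 they were Golt1b (0.0045), Rbm3 (0.0099) and Clip2 (0.019). With 3 libraries a distance describes 2 ratios only.

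Receptors for these ligands were barely read. Egfr had 21 counts with alisertib, 17 in control and 1 in bone marrow, 1.01, 0.870 and 0.043 CPM, and was called higher in both tumour libraries than in bone marrow (ratio 13.8, 3.15 to 839, in control and 15.9, 3.75 to 965, with alisertib). Erbb3, a receptor for neuregulin 1, had 14, 16 and 70 counts and was called lower in both tumour libraries, 3.62-fold (2.13 to 6.83) in control and 4.37-fold (2.51 to 8.65) with alisertib. Egfr passed the 1 CPM filter only through the alisertib library, and Erbb3 only through bone marrow (3.03 CPM), so these calls are a description. Erbb2, the partner receptor with no ligand of its own, had 2, 0 and 1 counts. Erbb4 had 0 in every library, where the 3-count floor stands at 0.145 CPM with alisertib, 0.154 in control and 0.130 in bone marrow. Between alisertib and control MDSCs neither Egfr (ratio 1.16, 0.584 to 2.35) nor Erbb3 (ratio 0.827) showed a difference detectable at this depth. Per length, Egfr stood at 0.0867 FPKM with alisertib and 0.0748 in control, beside summed ligand levels of 31.2 and 36.0 FPKM in the same libraries. That sum is over several ligands, includes Nrg1, which does not bind EGFR, and depends on the length used for Hbegf. Egfr and Erbb3 were not called against bone marrow on FPKM plus 1, nor Egfr on FPKM plus 0.1, where the added value exceeds the level of Egfr.

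Adam17 and Rhbdf2, which act together in releasing the ligands, were called higher in both tumour libraries than in bone marrow, but the list of sheddases as a whole had calls in both directions. Of 11 sheddases and their regulators, 9 passed the filter. In control MDSCs 4 were called higher and 2 lower than in bone marrow, with a median log2 ratio of 1.04 against -0.14 over all genes, of which 18.3% were called higher and 22.9% lower. In alisertib MDSCs 3 were called higher and 4 lower, with a median of 0.08 against -0.09 over all genes, of which 18.7% were called higher and 22.3% lower. Adam12 had 0 counts with alisertib, 1 in control and 18 in bone marrow, Timp3 had 0, 1 and 1, and Rhbdf1 had 22, 6 and 0. Rhbdf1, among the 3 called higher with alisertib, passed the filter only through that library (1.06 CPM), so that count is a description. With the 10 CPM filter, which leaves Rhbdf1 out, the median was 0.08 in control (-0.11 over all genes) and -0.56 with alisertib (-0.18). On FPKM plus 0.1 the control median was 0.63, and on FPKM plus 1 it was 0.08. Adam17, the main sheddase of Areg, Ereg, Hbegf and Tgfa, had 313 CPM with alisertib, 379 in control and 124 in bone marrow, 3.06-fold higher (2.93 to 3.20) in control and 2.53-fold (2.42 to 2.64) with alisertib than in bone marrow. Rhbdf2, whose product iRhom2 carries ADAM17 to the cell surface in myeloid cells, had 449, 474 and 209 CPM, 2.27-fold higher (2.19 to 2.35) in control and 2.15-fold (2.08 to 2.23) with alisertib. Adam8, a leukocyte metalloprotease, had 1885, 3656 and 1780 CPM and was 2.05-fold higher (2.03 to 2.08) in control MDSCs than in bone marrow. With total counts, Adam8 (log2 ratio 0.80) and Rhbdf2 (0.94) were no longer called in control MDSCs, and the list had 2 called higher and 4 lower. Between alisertib and control MDSCs 1 of the 9 was called, Adam19, 2.75-fold lower (2.53 to 2.99) at 37.0 against 102 CPM, and the list's median log2 ratio was -0.32 against 0.00. Adam17 stood 1.21-fold lower (1.17 to 1.25) and Adam8 1.94-fold lower (1.92 to 1.96), neither past the 2-fold bound.

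All 17 adaptors and members of the RAS and MAP kinase cascade passed the filter, 2 were called higher and 2 lower in control MDSCs than in bone marrow (median log2 ratio -0.23 against -0.14 over all genes, of which 18.3% were called higher and 22.9% lower). In alisertib MDSCs 1 was called higher and 4 lower than in bone marrow (median -0.40 against -0.09, with 18.7% and 22.3% of all genes called). None was called between alisertib and control, where 2.98% of all genes were (median -0.22 against 0.00, or 0.05 against 0.27 with total counts). The adaptor Grb2 had 234 CPM with alisertib, 229 in control and 342 in bone marrow, and the kinase Braf 165, 198 and 247. Mapk3, which encodes ERK1, had 88.2, 174 and 346 CPM and was called lower with alisertib than in bone marrow, 3.92-fold (3.72 to 4.13).

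Among feedback inhibitors of the receptors, Lrig1 and Cblb were called higher in the alisertib library. Of 13 listed, 10 passed the filter, and 2 were called higher and none lower with alisertib than in control, with a median log2 ratio of 0.32 against 0.00 over all genes, of which 1.8% were called higher and 1.18% lower. Lrig1, whose product promotes loss of ERBB receptors, had 252 counts with alisertib, 2 in control and 1 in bone marrow, a ratio to control of 95.04 (32.5 to 984). Lrig1 passed the filter only through the alisertib library (12.1 CPM). The counts of called genes that include it, here and against bone marrow, are therefore a description. Cblb, a ubiquitin ligase that also restrains T cell activation, was 5.49-fold higher (4.46 to 6.86), at 29.0 against 5.27 CPM. The same library had more B cell counts (Cd79a 7.18 against 0.819 CPM) and more of most T, NK and innate lymphoid markers (Tcf7 10.1 against 1.18). Of the 12 such markers past the filter, 9 were higher and 3 lower, Cd3d among the lower (6.21 against 8.70 CPM). The part of these cells in the Lrig1 and Cblb counts was not tested. Against bone marrow, 2 of the 10 were called higher and 1 lower in control MDSCs (median 0.59 against -0.14), and 4 and 1 in alisertib MDSCs (median 1.01 against -0.09), where 41.3% and 41% of all genes were called either way. Errfi1, an inhibitor of EGFR kinase activity induced by growth factors, was 14.0-fold higher (12.2 to 16.3) in control MDSCs and 11.04-fold (9.57 to 12.9) with alisertib than in bone marrow. Cbl, the ligase that tags EGFR for breakdown, was 4.73-fold lower (4.55 to 4.91) and 4.97-fold lower (4.79 to 5.17).

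Genes that respond to ERK or to cAMP, which many stimuli besides EGF ligands induce, were also described. Of 15 ERK response genes, 7 were called higher and 1 lower in control MDSCs than in bone marrow, with a median log2 ratio of 1.38. In alisertib MDSCs 6 were called higher and 2 lower than in bone marrow, with a median of 0.28. Etv4, among the 7 and the 6, passed the filter only through the tumour libraries (1.18 CPM in control and 1.11 with alisertib). Those counts are therefore a description, and on FPKM plus 1 Etv4 was called in neither comparison. Over all genes, 18.3% were called higher and 22.9% lower in control MDSCs (median -0.14), and 18.7% and 22.3% in alisertib MDSCs (median -0.09). Ier3 was 17.0-fold higher (15.95 to 18.1) and Dusp5, a phosphatase of nuclear ERK, 9.75-fold (9.33 to 10.2) in control MDSCs. Between alisertib and control, 1 was called higher (Myc, 3.08-fold, 2.08 to 4.79) and 1 lower (the early growth response gene Egr1, 3.37-fold, 3.29 to 3.47, at 343 against 1159 CPM), where 1.8% of all genes were called higher and 1.18% lower. Myc was not called on FPKM plus 1, at 1.77-fold, and the list then had none higher and 2 lower. Of 11 cAMP response genes, 6 were called higher and none lower in control MDSCs than in bone marrow (median 1.36; 5 higher and 1 lower with total counts), and 5 and none in alisertib MDSCs (median 0.66), beside the same shares and medians of all genes. Pde4b, a phosphodiesterase that breaks down cAMP, was 6.17-fold higher (5.85 to 6.53) in control MDSCs, while Sik1 was 1.84-fold lower and Fosl2 1.76-fold higher, short of the bound. None of the 11 was called between alisertib and control MDSCs, where Fosl2 stood 1.62-fold lower (1.596 to 1.654) and Per1 1.06-fold lower.

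**Figure D5:**
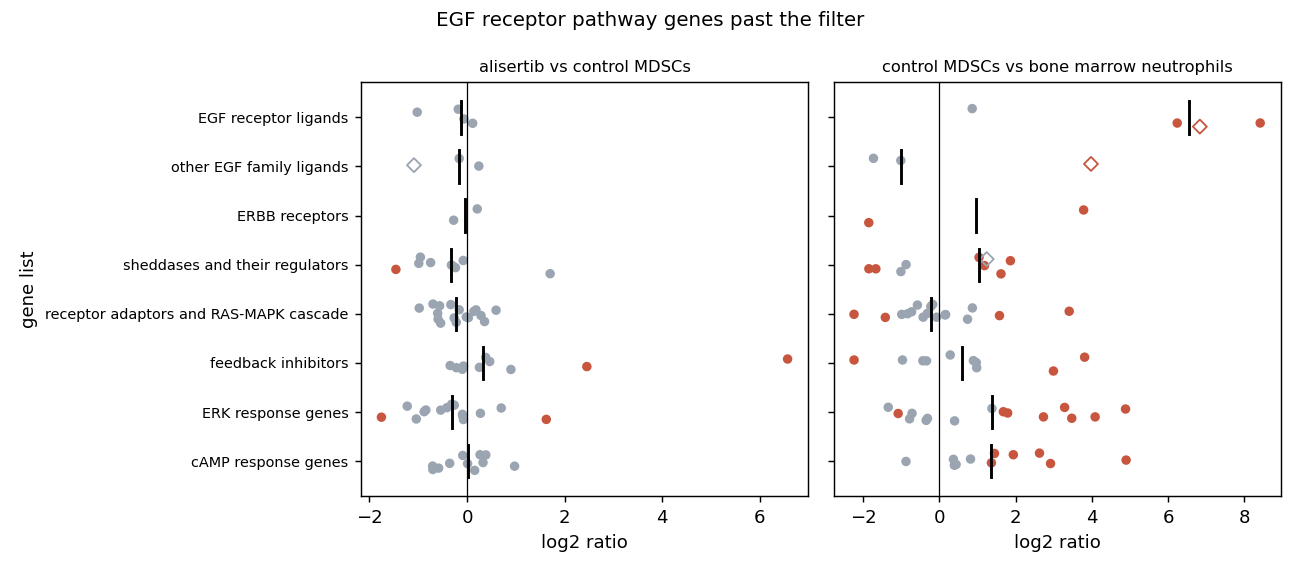
Log2 ratios of the listed genes past the filter, alisertib against control MDSCs on the left and control MDSCs against bone marrow neutrophils on the right, with called genes in red, other genes in grey, open diamonds at the bound where a library had 0 counts, and a black line at each list's median with those bounds. The ligands lie between -1.02 and 0.12 on the left, and on the right Areg, Ereg and Hbegf lie above 6 and Nrg1 at 0.86.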

How the data were processed

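RNA from sorted cells was sequenced, with 1 pooled library in each of 3 groups. The authors deposited raw counts per gene and FPKM values; per the submitters' processing notes, tools included CASAVA 1.8 and STAR 2.5.1b, and both mm9 and mm10 are listed. Counter, annotation, strand setting and gene filter: not given in the sources used here. Sorting purity exceeded 90%, per the labels' protocols.

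Comparisons used the deposited counts, scaled by TMM in edgeR 4.0.16 under R 4.3.3. The factor was 1.07 for alisertib, 0.890 for control and 1.05 for bone marrow. Genes with 1 CPM in at least 1 library were kept. Log2 ratios had 0.5 added to each count, and intervals were exact (Clopper-Pearson) given the summed count. They and the 3-count floors cover counting error only, since PCR copies could not be told from separate molecules. Symbols (19648 of 19723 genes), positions and lengths came from GENCODE M21. The calling procedure was run on simulated Poisson counts with the gene means of the control library. Such counts follow the model that the intervals assume, so the run cannot speak to spread between animals or to PCR copies. The members and the 7 pathway and 8 marker lists were chosen with earlier results of these data known. Text names all receptors and family ligands, and from other pathway lists the genes called between tumour libraries, then the most abundant, up to 4 per list. A few genes that this rule selects are not reported here.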

Additional observations from a re-analysis of the deposited data

How the results depend on the processing

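No paired analysis was possible because each group was 1 library, and leaving out a library would end the comparison. Areg, Ereg and Hbegf were called higher than in bone marrow in both tumour libraries under all 10 alternatives (other scaling, filters, added counts, FPKM and bounds). Not all of these could change a call. The calls rest on the interval, which the added counts do not enter, and a filter leaves the call of a gene that passes it. A 1.5-fold bound cannot remove a call. Other scaling, the FPKM values and the 3-fold bound could have removed one. Between alisertib and control MDSCs, 1 ligand (Ereg, lower) was called with FPKM plus 0.1 and with a 1.5-fold bound, where an FPKM call needs only a 2-fold ratio because there is no interval. Genes called in that comparison numbered 388, but 191 with a 10 CPM filter, 1059 with FPKM plus 0.1, 1257 with a 1.5-fold bound and 121 with a 3-fold bound, and genes of the pathway lists 5, but 16 and 3 with the 1.5-fold and 3-fold bounds. Of the genes called there, 60.3% were higher, against 84.0% under total-count scaling and 34.6%, 49.1% and 78.5% under the 10 CPM filter, the 1.5-fold and the 3-fold bound. The share was 32.4% on FPKM plus 1 and 52.7% with DESeq2 size factors, another library scaling. For control MDSCs against bone marrow, 5371 genes became 3520 with the 10 CPM filter and 3350 with the 3-fold bound, and 30 pathway genes became 46 with the 1.5-fold bound. For alisertib MDSCs against bone marrow, 5344 became 3507 and 3356. A filter or bound changes such counts by construction. Hbegf's share of the summed level of the 4 counted ligands was 49.0% (alisertib), 39.3% (control) and 21.1% (bone marrow) by FPKM, and 32.0%, 24.1% and 11.6% per kilobase of exon union, because the 2 lengths of Hbegf differ.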
